A study of Mus musculus with 14 samples.

Results

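Hemoglobin and erythroid genes were followed across 14 libraries of mouse aortic valve leaflets: the alpha globin genes Hba-a1 and Hba-a2, the beta globin genes Hbb-bs and Hbb-bt, the erythroid heme enzyme gene Alas2 and the red cell anion exchanger gene Slc4a1. These 6 genes of the 56941 in the count table were chosen by name, as a readout of the blood in the tissue, and all 6 passed the filter on low counts that left 19145 genes. Each library came from its own wild type male mouse (C57BL/6 in the labels, C57BL/6J in the study's methods), 8 weeks old when the infusion began. The study's methods give the Breslow Western Diet as the feed, without naming the diet of each group. The groups were untreated mice (Ctrl, n = 4), mice given LY272015, which blocks the serotonin receptor HTR2B, at 3 mg/kg (LY, n = 2), mice infused with the vasopressor peptide angiotensin II at 1000 ng/kg/min for 28 days from an osmotic pump (AngII, n = 4), and mice given the same infusion and the same antagonist (AngII+LY, n = 4). The hearts were flushed with PBS before the valves were taken. According to the design text of the series the pumps of both infused groups were taken out 48 hours before collection, whereas the methods describe this for a subset. Some labels of dosed mice carry neighbouring LY numbers in place of LY272015. The dosing interval of the antagonist differs between a label and the design text. The methods give more hearts per group for sequencing than there are libraries here. Library totals ran from 20990655 to 73128220 counts.

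Hemoglobin carries oxygen in red cells and is built of paired alpha and beta chains, each holding a heme. Red cells lose their nucleus before they circulate, so the globin transcripts of blood are left over from the precursor and are richest in young red cells. Alas2 makes the erythroid form of the enzyme that opens heme synthesis, and Slc4a1 makes band 3, the chloride and bicarbonate exchanger that also ties the red cell membrane to its skeleton. In a bulk library fewer red cells and less globin RNA per red cell cannot be told apart.

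The alpha pair is on chromosome 11 of GRCm39, Hba-a1 (ENSMUSG00000069919) at chr11:32233186-32234504 and Hba-a2 (ENSMUSG00000069917) at chr11:32246168-32247320, both on the plus strand. The beta pair is on the minus strand of chromosome 7, with Hbb-bt (ENSMUSG00000073940) at chr7:103461727-103465047 and Hbb-bs (ENSMUSG00000052305) at chr7:103475730-103482989. Alas2 (ENSMUSG00000025270) is on the plus strand at chrX:149330371-149353634, and Slc4a1 (ENSMUSG00000006574) is on the minus strand at chr11:102239650-102257029. Within a pair the coding sequences are nearly the same, which bears on how reads could be assigned to each copy. Hba-a1 and Hba-a2 differed at 1 of 426 coding bases and Hbb-bs and Hbb-bt at 1 of 441, an identity of 99.8% in either pair. The single difference of each pair was in the coding part of exon 3, shown here in GRCm39 with the differing base in capitals. It was C81T from Hba-a1 to Hba-a2 and C102T from Hbb-bs to Hbb-bt, counted from 1 at the 5′ end of the stretch.
Hba-a1, chr11:32234263-32234388 (plus strand): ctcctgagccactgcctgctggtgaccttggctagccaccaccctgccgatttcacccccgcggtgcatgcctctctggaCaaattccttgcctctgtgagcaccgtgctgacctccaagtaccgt
Hba-a2, chr11:32247080-32247205 (plus strand): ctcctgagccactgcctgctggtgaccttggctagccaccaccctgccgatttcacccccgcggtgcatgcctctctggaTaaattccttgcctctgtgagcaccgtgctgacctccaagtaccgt
Hbb-bs, chr7:103475875-103476000 (minus strand): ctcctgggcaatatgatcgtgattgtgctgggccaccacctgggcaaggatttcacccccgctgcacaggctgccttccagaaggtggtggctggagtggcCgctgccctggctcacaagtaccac
Hbb-bt, chr7:103461866-103461991 (minus strand): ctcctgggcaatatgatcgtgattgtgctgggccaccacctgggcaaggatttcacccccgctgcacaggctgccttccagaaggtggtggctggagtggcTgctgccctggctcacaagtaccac
Of all stretches of 100 bases in the main transcript of Hba-a1, 70.1% were found unchanged in Hba-a2, and 81.8% the other way round. For Hbb-bs and Hbb-bt the shares were 58.6% and 54.7%. How the counting treated reads that match both copies is not given in the sources used here, so the split within a pair is uncertain. If such reads were left out, the sum of a pair is too low as well, by a share that can differ between the alpha and the beta pair.

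The 150 bases before the start site are shown for the 5 genes matched in the RefSeq promoter table, which is on GRCm38.p6. Slc4a1 was not matched. Capitals mark matches, on either strand, to GATA words (AGATAA and also AGATAG, as well as TGATAA and also TGATAG), to CACCC, to CCAAT and to TATAA.
Hba-a1, chr11:32283522-32283671 (plus strand): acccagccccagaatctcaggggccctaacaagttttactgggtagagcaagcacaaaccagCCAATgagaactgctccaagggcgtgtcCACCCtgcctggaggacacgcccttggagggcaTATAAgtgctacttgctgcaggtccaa
Hba-a2, chr11:32296342-32296491 (plus strand): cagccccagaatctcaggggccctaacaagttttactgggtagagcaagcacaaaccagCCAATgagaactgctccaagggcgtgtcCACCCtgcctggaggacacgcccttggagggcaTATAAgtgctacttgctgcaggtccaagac
Hbb-bs, chr7:103827929-103828078 (minus strand): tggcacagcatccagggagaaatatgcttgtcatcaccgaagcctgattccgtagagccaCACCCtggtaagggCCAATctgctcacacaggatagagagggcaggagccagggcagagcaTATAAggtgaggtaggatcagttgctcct
Hbb-bt, chr7:103813924-103814073 (minus strand): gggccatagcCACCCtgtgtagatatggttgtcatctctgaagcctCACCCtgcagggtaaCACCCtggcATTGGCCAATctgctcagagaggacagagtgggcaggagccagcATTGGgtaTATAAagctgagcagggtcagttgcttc
Alas2, chrX:150547267-150547416 (plus strand): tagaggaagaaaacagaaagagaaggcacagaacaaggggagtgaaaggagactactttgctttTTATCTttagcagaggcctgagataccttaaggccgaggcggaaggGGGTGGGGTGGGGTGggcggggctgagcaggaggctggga
CACCC was found in all 5 windows, against 37.4% of the 32843 promoter windows of the same length. CCAAT was found in 4 of the 5 (24.5% of all windows) and TATAA in the same number (14.2% of all windows), in each case in the globin windows. A GATA word was found in the Alas2 window alone, and 16% of all windows held one. In the Hba-a1 and Hba-a2 windows the matches followed each other in the same order, with TATAA 27 and 30 bases before the start. The letters of these alpha windows were the same but for a shift of a few bases, and the beta windows shared stretches of letters. The windows of a pair are therefore not separate cases, and the counts beside the shares of all windows are no test. In Hbb-bt a reversed CCAAT directly preceded a forward one, so that the marked run is made of adjacent matches. These matches describe the letters of the windows and are no evidence of binding.

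The globins were among the most abundant transcripts of the valve libraries. Per kilobase of exon the mean level of Hbb-bs was 7651 CPM per kb (counts scaled to a common total and to 1 kilobase, SD 3164, n = 14), which ranked 5 among all genes, and in its best library Hbb-bs was the most counted gene. Hba-a1 followed at 4265 CPM per kb (SD 2161), Hba-a2 at 3816 (SD 1793) and Hbb-bt at 1618 (SD 859.6), with ranks of 8, 9 and 16. Alas2 stood at 239 CPM per kb (SD 161, n = 14) and ranked 113, and Slc4a1 at 4.46 (SD 2.89, n = 14) and ranked 6444. The order of the 6 levels was the same in every library except for the alpha pair, where Hba-a1 was above Hba-a2 in 13 of 14 libraries with ratios per kilobase from 0.941 to 1.25. The other neighbours in the order were apart in all 14 libraries. Hbb-bs was 1.47 to 2.36 times Hba-a1 per kilobase, and Alas2 was 23.6 to 95.4 times Slc4a1. The length was that of all annotated exons together, 971 and 920 bases for Hba-a1 and Hba-a2 and 1631 and 1660 for Hbb-bs and Hbb-bt. Their main transcripts are 738, 647, 664 and 704 bases, in the same order. The levels per kilobase of the beta genes are thus lowered more than those of the alpha genes, and the ranks and ratios depend on the length used.

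Together the 4 globin genes took between 0.949% and 4.17% of a library, a 4.4-fold range with a median of 2.18%. In the Ctrl mice the globin share was 0.949%, 2.38%, 2.94% and 1.89% of all gene counts. In the LY mice it was 3.73% and 1.53%. In the AngII mice it was 2.18%, 1.05%, 2.18% and 2.39%. The highest share of each group was between 2.27 and 3.19 times the lowest of the same group, and the ranges of the groups overlapped. The AngII+LY mice had 3.66%, 1.58%, 4.17% and 1.31%, that is, 2 libraries above every Ctrl library and 2 below 3 of the 4 Ctrl libraries. Group means were 2.04% ± 0.84 (SD, n = 4) in Ctrl, 2.63% ± 1.56 (SD, n = 2) in LY and 1.95% ± 0.61 (SD, n = 4) in AngII, while AngII+LY had 2.68% ± 1.45 (SD, n = 4). Mitochondrial genes took 4.00% to 7.52% of counts in the Ctrl mice and 9.83% to 25.5% in the AngII mice. With these counts left out the globin share averaged 2.16% in Ctrl and 2.43% in AngII, and over the TMM library size 1.85% and 2.17%, so the order of these means turned with the denominator. The widest Wilson 95% interval of a share spanned 0.013 percentage points, which takes in the error of counting alone, as PCR copies of a molecule were not told apart.

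**Figure D1:**
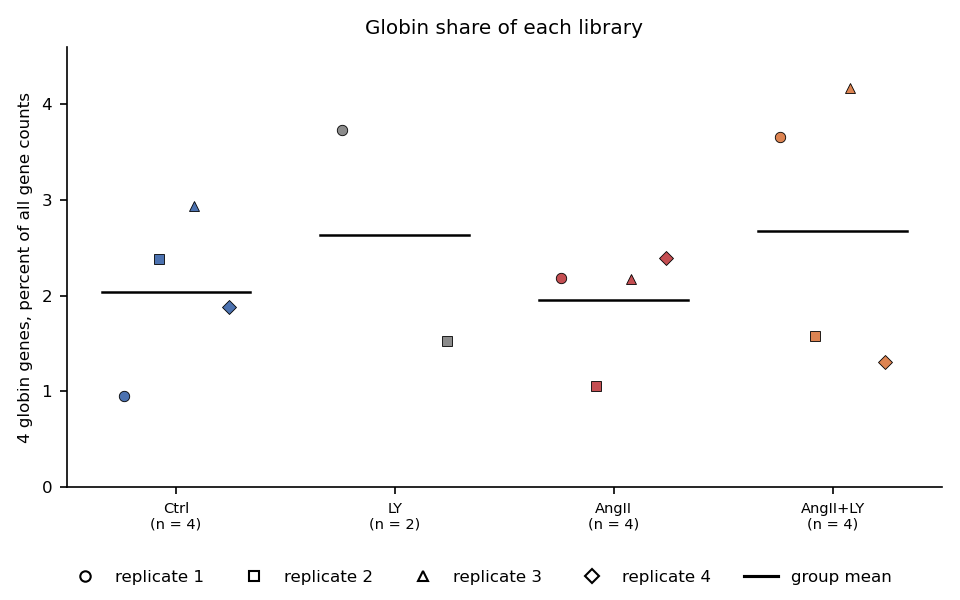
Counts of Hba-a1, Hba-a2, Hbb-bs and Hbb-bt summed, as a percent of all gene counts in each library (vertical axis), by group (horizontal axis). Symbols mark single mice and black lines group means, which lie between 1.95% and 2.68% while single mice run from 0.949% to 4.17%.

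Values from here on are normalized counts, that is, counts scaled to a common library size with the TMM method. Among the alpha globins, Hba-a1 stood at 83224, 247043, 280082 and 173200 in the Ctrl mice and at 322906 and 141896 in the LY mice. It stood at 204637, 88520, 217405 and 270885 in the AngII mice and at 448633, 140809, 522484 and 125865 in the AngII+LY mice. Mouse Ctrl 1 and mouse AngII 2 were low, mice AngII+LY 1 and AngII+LY 3 were high, and all group ranges overlapped. Mean normalized counts of Hba-a1 were 195887 ± 87395 in Ctrl and 195362 ± 76792 in AngII (SD, n = 4 each). Hba-a2 stood at 67351, 216604, 236854 and 150576 in the Ctrl mice and at 281284 and 110056 in the LY mice. Its values were 168291, 81566, 199069 and 223119 in the AngII mice and 385168, 126657, 395913 and 126667 in the AngII+LY mice. Hba-a2 ordered the mice much as Hba-a1 did, with the same mice at the ends of the Ctrl, LY and AngII groups.

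Among the beta globins, Hbb-bs, the more abundant of the pair, stood at 251779, 631590, 767234 and 508988 in the Ctrl mice and at 1036246 and 435097 in the LY mice. In the AngII mice it stood at 642551, 306165, 860071 and 1006464, and in the AngII+LY mice at 1221910, 483678, 1290308 and 446881. Mice AngII 3 and AngII 4 were above every Ctrl mouse, and mouse AngII 2 was below all Ctrl mice but 1. Hbb-bt stood at 48476, 145394, 163542 and 106457 in the Ctrl mice and at 291481 and 93870 in the LY mice. It stood at 138618, 48927, 168978 and 161759 in the AngII mice and at 284948, 83512, 291369 and 89973 in the AngII+LY mice. The high mice were mouse LY 1 and mice AngII+LY 1 and AngII+LY 3.

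Alas2, the heme enzyme gene, stood at 6609, 34959, 46862 and 19767 in the Ctrl mice and at 85354 and 17404 in the LY mice. It stood at 26502, 10746, 33646 and 71600 in the AngII mice and at 61577, 14902, 63830 and 16888 in the AngII+LY mice. Its highest library was 12.9 times its lowest, a wider range than that of any of the 4 globins, whose ranges were between 5.12-fold for Hbb-bs and 6.28-fold for Hba-a1. Slc4a1, the band 3 gene, stood at 183.9, 667.3, 2133 and 705.4 in the Ctrl mice and at 1933 and 421.7 in the LY mice. In the AngII mice it stood at 1330, 604.8, 972.2 and 1459, and in the AngII+LY mice at 2620, 1148, 2623 and 360.1. Its range was 14.3-fold, with mouse Ctrl 3 above every AngII mouse. Mouse Ctrl 1 was the lowest of its group for all 6 genes, mouse Ctrl 3 the highest, mouse AngII 2 the lowest of its group and mouse AngII+LY 3 the highest of its group, again for all 6 genes. Mouse AngII 4 was the highest of its group for 5 of the 6.

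**Figure D2:**
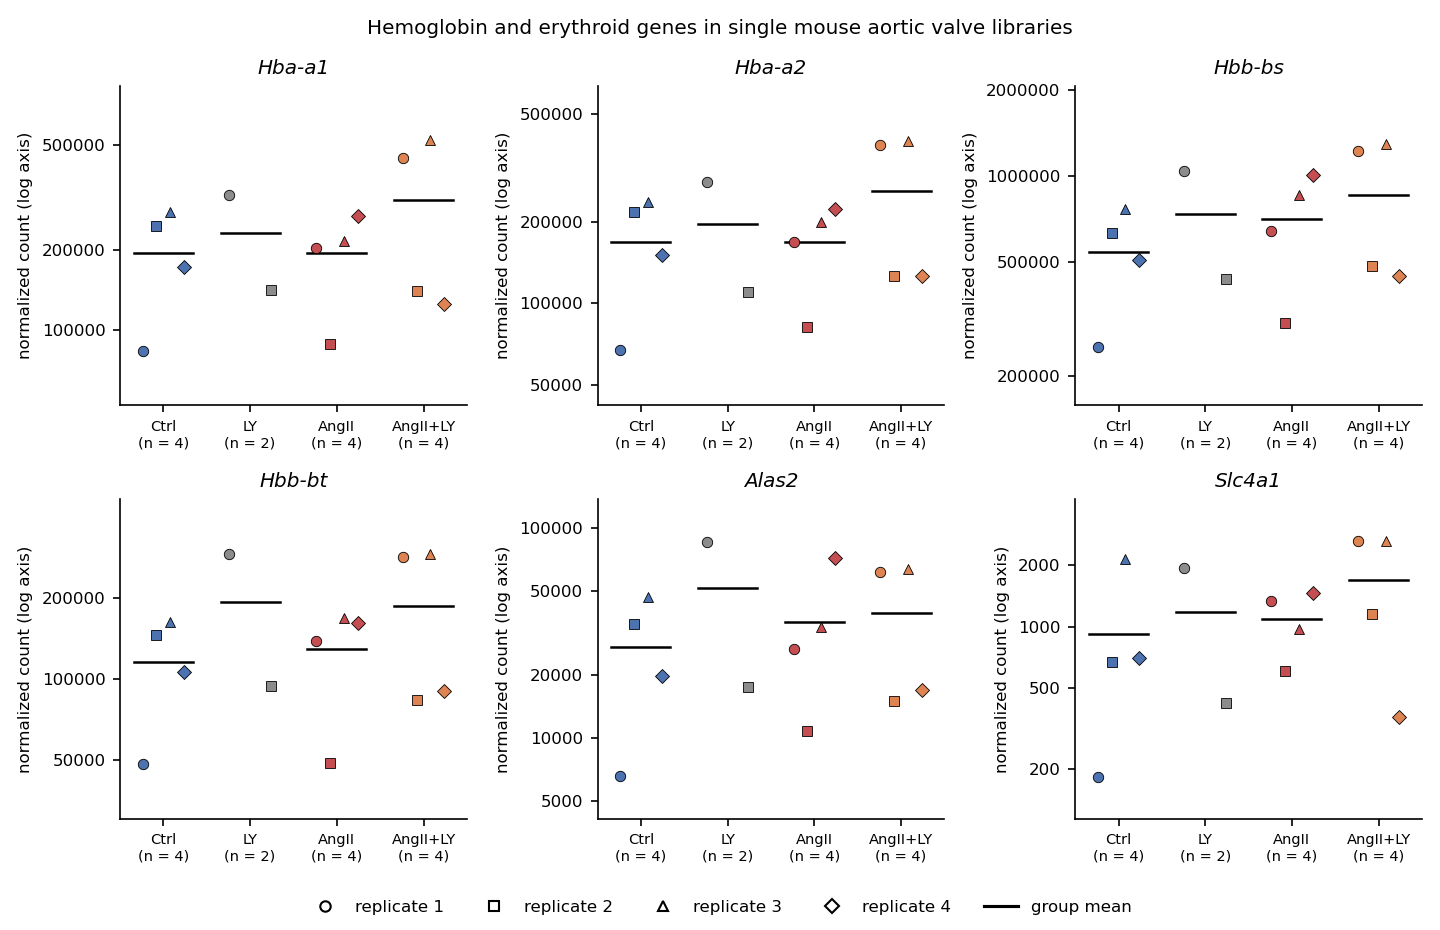
Normalized counts (vertical log axis) of the 6 genes in each of the 14 libraries, by group (horizontal axis), with symbols for single mice and black lines for group means. The same mice are low (mice Ctrl 1 and AngII 2) and high (mouse LY 1, mice AngII+LY 1 and AngII+LY 3) in each panel or nearly so, and the groups overlap in all of them.

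The comparison of AngII with Ctrl asked whether the infusion went with a different blood transcript content. The fitted log2 fold changes were -0.0039 for Hba-a1, 0.0014 for Hba-a2, 0.38 for Hbb-bs, 0.16 for Hbb-bt, 0.40 for Alas2 and 0.24 for Slc4a1. Their standard errors were between 0.47 and 0.70, so each difference was smaller than its own error. With edgeR's quasi-likelihood test, none of the 6 was called at an adjusted p under 0.05 with an absolute log2 fold change above 0.5, and the adjusted p-values were between 0.653 and 0.999. The same rule called 0.0% of all genes tested, and an unadjusted p under 0.05 was reached by none of the 6 and by 25.2% of all genes. DESeq2, run as an alternative, called 2648 genes in this comparison but none of the 6, at adjusted p-values of 0.492 or more. For none of the 6 were the groups free of overlap, against 15.0% of all genes. The median log2 fold change of the 6 was 0.20, beside -0.06 over all genes. Without mouse Ctrl 1 that median was -0.10, and without mouse AngII 4 it was -0.07, so the side of 0 rested on these libraries. Without mouse Ctrl 3 it was 0.49 and without mouse AngII 2 it was 0.44, and with the replicate block it was 0.06. With the GC correction the median was 0.739, beside 0.10 over all genes, and with the block added it was 0.56.

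The comparison of AngII+LY with AngII asked whether the antagonist changed that content during the infusion. The log2 fold changes were 0.66 for Hba-a1, 0.62 for Hba-a2, 0.29 for Hbb-bs, 0.53 for Hbb-bt, 0.14 for Alas2 and 0.63 for Slc4a1, with standard errors from 0.47 to 0.70. All 6 were above 0, with a median of 0.58 beside -0.02 over all genes, but no gene was called and the edgeR adjusted p-values were between 0.483 and 0.933. In this comparison 0.0% of all genes were called, 22.5% had an unadjusted p under 0.05 and 11.1% had groups without overlap, and none of the 6 met any of these. The higher globin values were those of mice AngII+LY 1 and AngII+LY 3, and the other 2 AngII+LY mice stayed below the mean of the AngII group for each of the 4 globins. Without mouse AngII+LY 1 the median was 0.30, without mouse AngII+LY 3 it was 0.26, without mouse AngII 2 it was 0.33, and in each of these fits Alas2 lay below 0. With the GC correction the median was 0.315.

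AngII+LY against Ctrl, in which the infusion and the antagonist vary together, gave a median of 0.67 beside -0.02 over all genes, and of 0.438 with the replicate block. The log2 fold changes ran from 0.54 for Alas2 to 0.87 for Slc4a1, or 1.45-fold to 1.83-fold, with standard errors from 0.47 to 0.70. None was called, with edgeR adjusted p-values from 0.657 to 0.833, and exact 2-sided permutation tests over the 4 and 4 mice gave p between 0.229 and 0.514. Of all genes 0.0% were called, 11.0% had an unadjusted p under 0.05 and 8.16% had groups without overlap. The 6 stayed above 0 whichever mouse was left out, with medians from 0.37 without mouse AngII+LY 3 to 0.91 without mouse AngII+LY 2. Without mouse Ctrl 3 Slc4a1 reached an unadjusted p under 0.05, at a log2 fold change of 1.70.

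LY against Ctrl asked what the antagonist did without the infusion and rested on 2 LY mice. The log2 fold changes were between 0.22 for Hba-a2 and 0.93 for Alas2, with standard errors from 0.57 to 0.84 and edgeR adjusted p-values of 1.0 for all 6 genes. Of all genes 0.0% were called, 1.39% had an unadjusted p under 0.05 and 12.0% had groups without overlap, and the 6 genes met none of these. The direction rested on mouse LY 1 and the size on others as well. Without LY 1 all 6 log2 fold changes were below 0, with a median of -0.54, and without mouse LY 2 the median was 1.004. Without mouse Ctrl 1 it was 0.11 with 2 of the 6 below 0, and without mouse Ctrl 3 it was 0.80. The effect of the antagonist with the infusion minus its effect without it had log2 values from -0.78 for Alas2 to 0.42 for Hba-a1, with standard errors from 0.74 to 1.11. The edgeR adjusted p-values of this difference were between 0.798 and 0.9502, and none of the 6 had an unadjusted p under 0.05, against 13.3% of all genes. Groups of 4 against 4 mice allow a smallest exact p of 0.0286 and groups of 2 against 4 of 0.0667. Exact p-values come from reassigning mice between the groups compared. The edgeR p-values set a difference against a spread between mice that was estimated over all 4 groups. For the 2 LY mice that spread comes largely from the other groups.

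**Figure D3:**
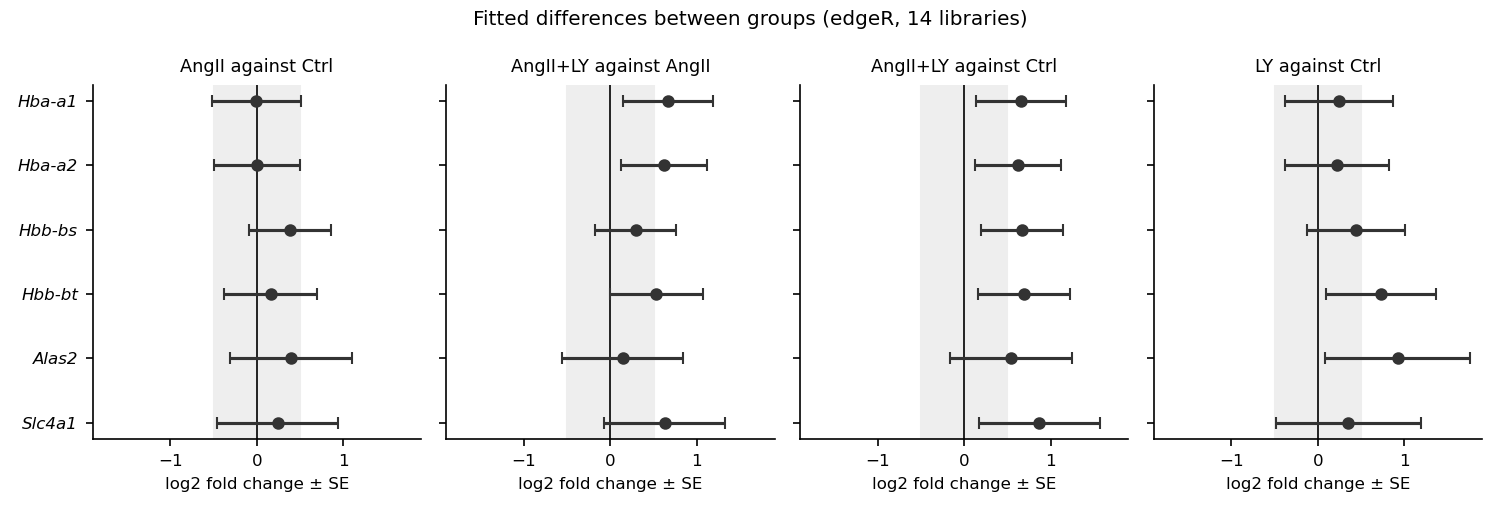
Log2 fold change (horizontal axis, with its standard error as bars) of the 6 genes (vertical axis) in each of 4 comparisons, from a single edgeR fit of 14 libraries. The grey band spans the log2 fold changes that the threshold of 0.5 leaves out. In AngII against Ctrl the points lie between -0.0039 and 0.40, and in AngII+LY against Ctrl between 0.54 and 0.87, with bars of 0.47 or more in every panel.

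The 6 genes moved together over the libraries. Pearson's r of log2(normalized count + 1) between pairs of them was between 0.838 and 0.992 over 14 libraries, and between 0.853 and 0.992 once each group's mean was taken out. The points share library, depth and scaling, so these values are a description. The summed globins went with an r of -0.419 with the log2 of the library total, 0.452 with the mitochondrial share of counts and -0.589 with the TMM factor, and the part of these in the result was not tested.

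Ratios between members within a library do not depend on depth. The ratio of Hba-a1 to Hba-a2 counts was 1.17 on average (SD 0.085, n = 14) and ran from 0.994 to 1.32, a 1.33-fold range beside the 6.28-fold range of the Hba-a1 level. The ratio of Hbb-bs to Hbb-bt was 4.92 on average (SD 0.756, n = 14), from 3.56 in mouse LY 1 to 6.26 in mouse AngII 2. Group means of this ratio were 4.75 ± 0.35 in Ctrl, 5.55 ± 0.82 in AngII and 4.87 ± 0.68 in AngII+LY (SD, n = 4 each), with overlapping ranges. The ratio of all beta to all alpha globin counts was 1.99, 1.68, 1.80 and 1.901 in the Ctrl mice and 2.095, 2.088, 2.47 and 2.365 in the AngII mice. Every AngII mouse was above every Ctrl mouse in this ratio. The longest annotated transcripts of the alpha genes are 56.8% and 57.0% GC and those of Hbb-bs and Hbb-bt 44.7% and 50%. The ratio is not corrected for GC. These transcripts, which need not be the main ones, set the GC correction. Hbb-bs and Hbb-bt differ at 1 of 441 coding bases, and how far the choice of transcript moved the correction was not tested. With the GC correction the log2 fold changes of AngII against Ctrl were 0.737 for Hba-a1 and 0.742 for Hba-a2, above 0.159 for Hbb-bs and 0.422 for Hbb-bt, which turns the order of alpha and beta around. The LY mice, at 2.20 and 2.10, were also above every Ctrl mouse, while the AngII+LY mice, at 1.81, 2.12, 1.72 and 2.13, overlapped with Ctrl and with AngII. No test was run on the ratio, which was computed among several after the members had been chosen, and single genes with groups that did not overlap made up 15.0% of all genes in AngII against Ctrl.

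Alas2 counts per 1000 globin counts were 14.7, 28.2, 32.4 and 21.05 in the Ctrl mice and 44.2 and 22.3 in the LY mice. They were 23.0, 20.5, 23.3 and 43.1 in the AngII mice and 26.3, 17.85, 25.5 and 21.4 in the AngII+LY mice. Mouse LY 1 and mouse AngII 4 were high, and mouse Ctrl 1 was low. Slc4a1 counts per 1000 globin counts ran from 0.408 in mouse Ctrl 1 to 1.47 in mouse Ctrl 3, a 3.61-fold range that the Ctrl group spanned alone.

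**Figure D4:**
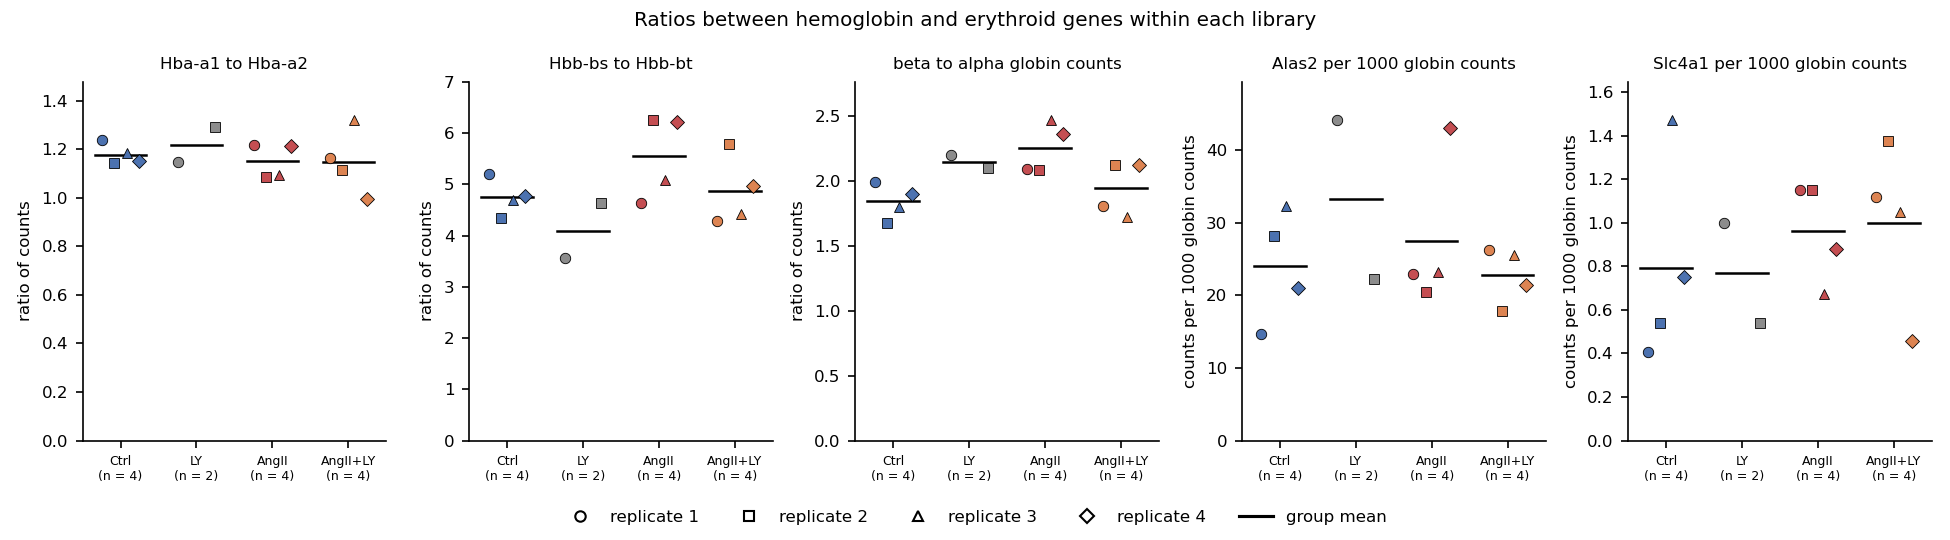
Ratios of counts between the genes (vertical axes, from 0) in each library, by group (horizontal axes), with symbols for single mice and lines for group means. The beta to alpha ratio is the panel in which the AngII mice, from 2.09 to 2.47, lie above the Ctrl mice, from 1.68 to 1.99, and the Alas2 panel shows mice LY 1 and AngII 4 at 44.2 and 43.1 per 1000.

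The genes outside the 6 that were most like the summed globins, by Pearson's r of log2(normalized count + 1) over the 14 libraries, included Isg20, Bpgm, Isca1, Epb41, Hbq1a, Car2, E2f2, Ube2o and Fech, with r from 0.949 down to 0.915. Over all 19139 other genes the median r was -0.067, and 36 genes or 0.188% had an r above 0.8. Bpgm makes the enzyme of red cell 2,3-bisphosphoglycerate, which lowers the oxygen affinity of hemoglobin. Its normalized counts ran from 4736 in mouse Ctrl 1 through a median of 15671 to 51274 in mouse AngII 4. Epb41 makes protein 4.1 of the red cell skeleton, with a lowest value of 3617, a median of 7869 and a highest of 20022. In Bpgm and Epb41 mouse Ctrl 1 was lowest and mouse AngII 4 highest. Car2, a carbonic anhydrase of red cells, ran from 351.4 through 1430 to 4169, and Fech, which inserts iron into heme, from 5642 through 11340 to 27980. Ube2o, a ubiquitin enzyme that clears proteins while red cells mature, ran from 1789 through 3689 to 7473. Hbq1a, a theta globin gene that follows Hba-a2 on chromosome 11 at chr11:32250067-32254086, stood far lower, from 41.65 through 124.1 to 281.5. None of the named genes was called in any of the 4 comparisons with edgeR, with adjusted p-values of 0.415 or more.

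Of a list of 12 heme synthesis genes, 2 had an r above 0.8 with the summed globins, and the sum of the list had 0.91. Fech had an r of 0.915 with the summed globins and Slc25a37, the mitochondrial iron importer of erythroid cells, 0.893, followed by the carrier gene Slc25a39 at 0.729. Alas1, the form of the opening enzyme used outside erythroid cells, had 0.302, and Alad and Urod, which act in the middle of the pathway in all cells, had -0.0706 and 0.0139. In AngII against Ctrl 5 of the 12 had an unadjusted p under 0.05 (25.2% of all genes did), all lower, among them Alad, Urod, Ppox and Slc25a38 with log2 values from -0.72 to -0.54. Without mouse AngII 4 it was 1 of the 12, and without any of the mice AngII 3, Ctrl 2 or Ctrl 3 it was 3. In AngII+LY against AngII 5 of the 12 had one (22.5% of all genes did), all higher, led by Alas1 at 0.97 with an edgeR adjusted p of 0.0588 and Urod at 0.67 with 0.0791. That count was 2 without mouse AngII+LY 3, 3 without mouse AngII 4 or AngII+LY 4 and 7 without mouse AngII 1, where the lowest edgeR adjusted p of the list was 0.0399. None of the 12 was called by edgeR in any comparison of all libraries, and the medians of the list were -0.49 in AngII against Ctrl (-0.32 without mouse AngII 4) and 0.43 in AngII+LY against AngII.

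In the list of 18 late erythroid genes, 17 were in the table, 16 were tested, and 7 had an r above 0.8 with the summed globins. Beside Isg20, Bpgm and Car2 these included Tent5c at 0.894, Ube2l6 at 0.889 and Trim10 at 0.897. Tmcc2 and Ypel4 had negative values of -0.255 and -0.540, and the sum of the list had an r of 0.915. The summed list was highest in mouse AngII 4, at 262067 normalized counts, against 102134, 60210 and 136056 in the other AngII mice. No gene of this list was called by edgeR over all libraries. The unadjusted p was under 0.05 for 3 of the 16, beside 25.2% of all genes: for Bnip3l, which clears mitochondria from maturing red cells, at 1.16, for the transferrin receptor gene Tfrc at 0.98 and for Prdx2 at -0.46 in AngII against Ctrl. Without mouse AngII 4 it was 0 of the 16. Prdx2 lay on the other side in AngII+LY against AngII, at 0.75 with an edgeR adjusted p of 0.0713, and without mouse AngII 1 the lowest adjusted p of the list there was 0.0456. Tfrc stood at 1.77 in AngII+LY against Ctrl, with an edgeR adjusted p of 0.239.

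Of 17 red cell membrane genes 16 were tested, and the highest r with the summed globins was that of Epb41 at 0.944, while Gypc had -0.368. The sum of the list had an r of 0.248, and 70.0% of it came from Aqp1, a water channel of red cells and also of endothelium, whose own r was -0.046. In AngII against Ctrl Gypc at -0.55 and the glucose transporter gene Slc2a1 at -1.20 had an unadjusted p under 0.05, which is 2 of 16 beside 25.2% of all genes, and edgeR called none. Without mouse AngII 4 it was 0 of the 16, and without any of the mice Ctrl 1, Ctrl 2 or Ctrl 3 it was 1, while without mouse AngII 1 it was 4.

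The transcription factors of erythroid precursors had lower r with the globins, and 2 of the best known were at low levels. Gata1, the main erythroid factor, which megakaryocytes use as well, ran from 2.37 through a median of 24.4 to 466.5 normalized counts, with the highest value in mouse AngII 4. Klf1, the activator of adult beta globin, ran from 0 through 2.16 to 33.7 and did not pass the filter. Tal1 at 0.62, Nfe2 at 1.22 and Ldb1 at -0.66 had an unadjusted p under 0.05 in AngII against Ctrl, 3 of 9 beside 25.2% of all genes, and edgeR called none. Without mouse AngII 4 or mouse Ctrl 1 it was 0 of the 9, without AngII 3, Ctrl 2 or Ctrl 3 it was 1, and mouse AngII 4 held the highest Tal1 and Nfe2 values. The r of the 9 tested genes of the list with the summed globins was between -0.329 and 0.374, and the sum had 0.112. Of the 6 embryonic and theta globin genes, Hbq1a, Hbq1b and Hbb-y were tested, Hbb-bh2 was listed at 0 in every library, and Hba-x and Hbb-bh1 stayed at or below 2.07 normalized counts.

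Of the globins outside red cells, myoglobin had an r of 0.515 with the summed globins (0.167 without the 2 libraries farthest from their median), and cytoglobin and neuroglobin had -0.403 and -0.392. Mb, the myoglobin gene of heart muscle, ran from 40712 through a median of 110942 to 265986 normalized counts and was highest in mouse AngII+LY 4, where the globins of blood were low. In AngII+LY against AngII Mb had a log2 fold change of 1.46 ± 0.45 (SE) with an edgeR adjusted p of 0.0915, and the cytoglobin gene Cygb had -0.72 ± 0.24 (SE) with 0.101 in AngII against Ctrl. Neither was called. Among 11 genes that bind, break down or store freed hemoglobin, heme and iron, edgeR called none over all libraries. The comparison of AngII with Ctrl had 10 of the 11 at log2 values below 0 and 5 with an unadjusted p under 0.05, beside 25.2% of all genes. The count of 5 was 3 without mouse AngII 4 and 7 without mouse AngII 1, where the lowest edgeR adjusted p of the list was 0.026, and without mouse Ctrl 4 that p was 0.0378. The 5 were the haptoglobin gene Hp at -1.79, the heme oxygenase gene Hmox1 at -0.79, Blvrb at -0.81, Ftl1 at -0.49 and Lrp1 at -0.90. The r of the 11 genes with the summed globins was between -0.633 and 0.379.

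Markers of other blood cells had summed levels with an r below 0.4 with the summed globins. The 12 platelet genes, of which Ppbp was the most abundant, summed to 45322, 14399, 13942 and 20450 normalized counts in the Ctrl mice and to 35638, 22061, 32977 and 271530 in the AngII mice. Mouse AngII 4 was far above all other libraries, and the r of the list's sum with the summed globins was 0.253. In AngII against Ctrl all 12 had log2 values above 0, with a median of 2.11, and 7 had an unadjusted p under 0.05, beside 25.2% of all genes. Without mouse AngII 4 the median was 0.18 and 1 of 11 tested genes had one. Without mouse Ctrl 1 the median was 3.02 and 11 of 11 had one, and without any other single Ctrl mouse 3 of 12 had one. In AngII+LY against AngII all 12 lay below 0, with a median of -1.09, and 4 had one, beside 22.5% of all genes. Without mouse AngII 4 that median was 0.38 and 0 of 11 had one. The count was 1 without mouse AngII+LY 2 and 2 without mouse AngII+LY 1 or AngII+LY 3. The 12 neutrophil genes, 8 of them tested, summed to between 722 and 2204 normalized counts, with Ly6g, Cxcr2, Mmp8 and Camp too low to test. The 9 lymphocyte genes summed to between 388 and 1401, and the r of the 2 sums with the globins were 0.172 and 0.355. Without the 2 libraries farthest from the median of the globins the lymphocyte sum had 0.787. In AngII against Ctrl 8 of the 9 lymphocyte genes lay below 0, with a median of -0.89. An unadjusted p under 0.05 was reached by 3 of them, all lower, beside 25.2% of all genes. That count was 1 without mouse AngII 2, AngII 3 or Ctrl 1. Of the 8 neutrophil genes tested 2 had one, all lower, and 1 without mouse AngII 3, Ctrl 1 or Ctrl 4. Platelet, neutrophil and lymphocyte genes were not called by edgeR in any comparison of all libraries, while the lowest adjusted p of the platelet genes in AngII against Ctrl was 0.032 without mouse AngII 1 and 0.0475 without mouse AngII 2.

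Markers of the neighbouring tissue were measured beside the globins. The 11 cardiomyocyte genes, led by Tnnt2, had a summed level of 1564629, 1021404, 1951170 and 2571855 normalized counts in the AngII+LY mice, above the AngII mice at 810833, 399315, 1044029 and 614108 but for mouse AngII+LY 2. In AngII+LY against AngII all 11 had log2 values above 0, with a median of 1.36, and 7 had an unadjusted p under 0.05, beside 22.5% of all genes, without any being called by edgeR. Without mouse AngII+LY 4 the count was 4, and 2 genes lay below 0. The r of this sum with the summed globins was 0.558, and 0.176 without the 2 libraries farthest from the median of the globins. The 6 smooth muscle genes summed to 456242 in mouse Ctrl 1, the library with the least globin, and to between 22914 and 211693 in all others. The 12 valve interstitial genes, led by Dcn, were all tested. So were the 8 endothelial genes, led by Pecam1, and the 7 adipocyte genes, led by Fabp4. Being tested needs only a pass of the filter on low counts, which cannot tell valve from neighbouring tissue. The sums of the valve interstitial, endothelial and adipocyte lists had r of -0.312, 0.204 and 0.409 with the summed globins. Of 6 smooth muscle and 7 adipocyte genes, 5 each had an unadjusted p under 0.05 in AngII against Ctrl, all lower, beside 25.2% of all genes, with list medians of -2.63 and -1.60. Without mouse Ctrl 1 it was 0 of the 6 smooth muscle genes, with a median of -0.99, and 3 of the 7 adipocyte genes. Without mouse AngII 1 it was 2 of the 6 and 3 of the 7, and without mouse AngII 2 it was 3 of each list. In AngII+LY against AngII 6 of 12 valve interstitial genes had one, beside 22.5% of all genes, all lower, with a median of -0.61. edgeR called none of these genes over all libraries. Leaving out a mouse took the lowest adjusted p in AngII against Ctrl under 0.05 for adipocyte genes (0.026 without AngII 1, 0.0475 without AngII 2, 0.0247 without Ctrl 4) and smooth muscle genes (0.0449 without Ctrl 4). For valve interstitial genes in AngII+LY against AngII it was 0.041 without AngII 1. The part of any of these cell types in the levels of the 6 genes was not tested.

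**Figure D5:**
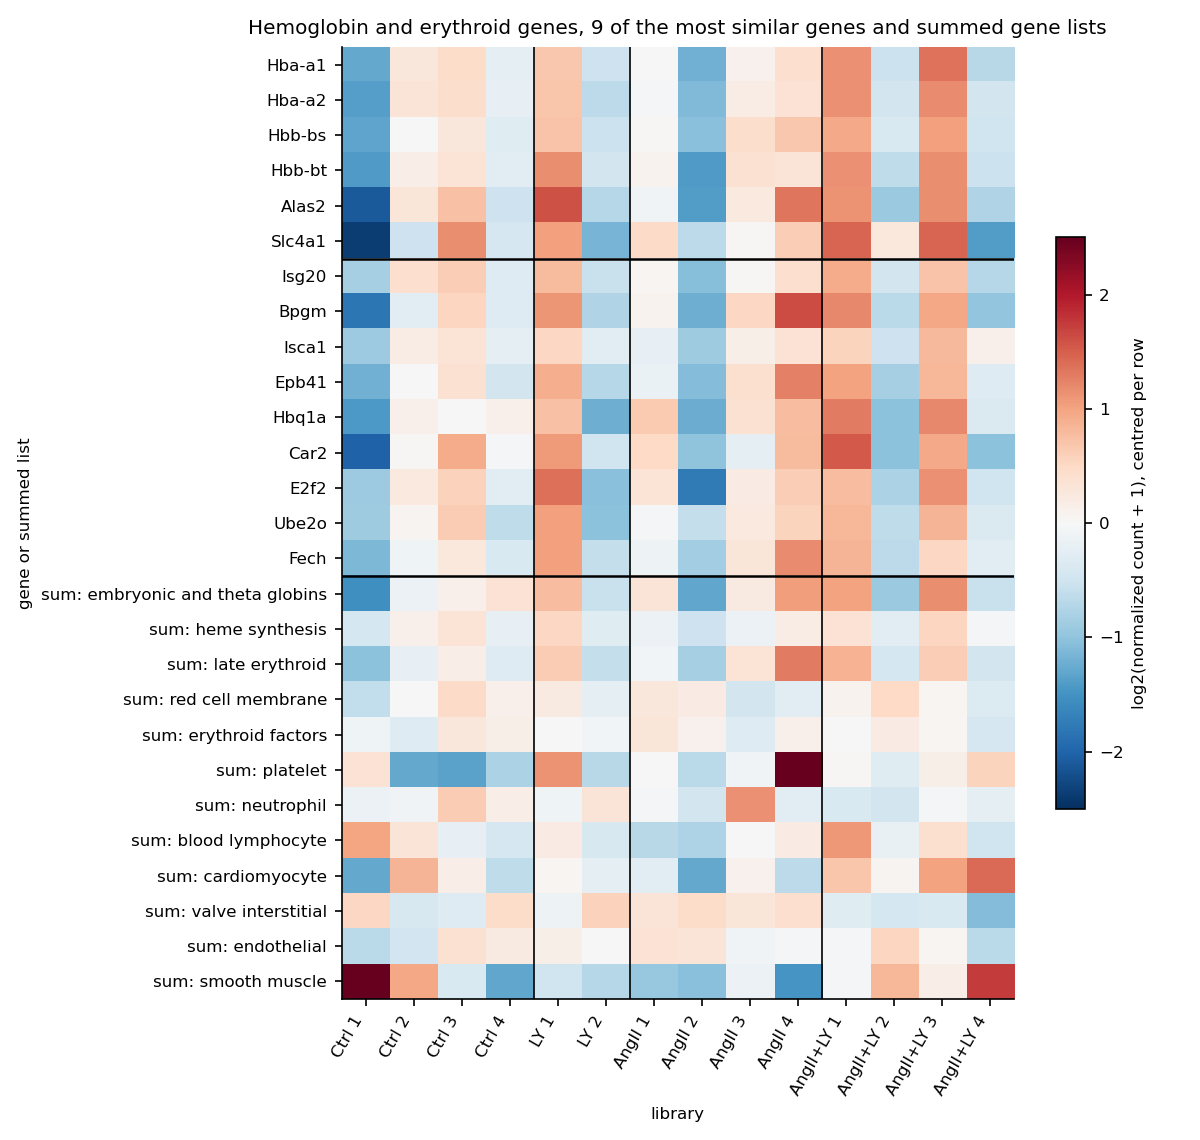
Log2(normalized count + 1) centred per row (colour, limited to 2.5 on either side of 0) of the 6 genes, 9 genes among those most like the summed globins, and summed gene lists (vertical axis) in each library (horizontal axis). The 9 genes repeat the column pattern of the 6, with r from 0.915 to 0.949, while the platelet sum stands out in mouse AngII 4 and the smooth muscle sum in mouse Ctrl 1.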

How the data were processed

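RNA of aortic valve leaflets from 14 mice, each its own library, was sequenced by the authors. Quality was examined with FastQC 0.12.1, reads were trimmed, aligned to GRCm39 with HISAT2 and counted per gene with featureCounts. The deposited table is named as normalized, but its values are whole counts per gene and sum to a different total in each library, so they were used as counts. Of the values from 1 to 20, 60.8% were even. The handling of strand and of reads that match several genes is not given in the sources used here. Of the genes in the table, 618 had no match in the GENCODE vM39 annotation, and 0 columns belonged to other samples.

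Groups came from the sample titles. Genes were kept from a mean count of 10 upwards (19145 genes) and fitted once over 14 libraries and 4 groups with edgeR 4.0.16 (TMM factors, quasi-likelihood test, Benjamini-Hochberg adjustment over all genes tested). A gene was called at an adjusted p under 0.05 with an absolute log2 fold change above 0.5. Standard errors are the log2 fold change over the root of its F value. Exact permutation tests over mice were 2-sided. Normalized counts are counts over the TMM library size times the mean of these sizes, and logs were taken after adding 1. Shares of counts carry Wilson 95% intervals. The scripts were tested on simulated data. Alternatives were DESeq2 1.42.0, its size factors, no filter, the compared groups alone, a replicate block, a GC correction (loess, span 0.3), the 6 genes left out of library sizes, each mouse left out and, chosen after seeing the data, the newer quasi-dispersions of edgeR. The genes named beside the 6 come from the 10 most correlated with the summed globins and from fixed lists, and some of them are not reported here. The 6 genes and the lists were chosen with earlier results of these data known. Promoter windows came from RefSeq on GRCm38.p6, in which 5 of the 6 genes were matched. The GC correction used the GC share of the longest annotated transcript of each gene. Levels per kilobase used the length of all annotated exons of a gene together.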

Additional observations from a re-analysis of the deposited data

Results flagged for a closer look

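Of 36 groups of 4 mice and measures examined, 2 held a mouse that stood apart by Dixon's criterion at 95%, which chance meets in about 1 in 20 groups. The globin share of mouse AngII 2 was 1.05% of counts, whereas the other AngII mice had 2.18% to 2.39%, and its gap to the nearest of them made up 0.838 of the group's range. With mitochondrial counts left out the gap was 0.628 of the range (1.17% beside 2.45% to 3.21%) and over the TMM library size 0.553, so that it no longer met the criterion. Mouse AngII 4 had 43.1 Alas2 counts per 1000 globin counts, whereas the others had 20.5 to 23.3, a gap of 0.876 of the range. That library also had the lowest total, 20990655 counts, a mitochondrial share of 25.5% and the highest platelet sum, and their part in the value was not tested.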

How the results depend on the processing

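No gene of the 6 was called under any of 528 alternatives for single genes and comparisons (lowest edgeR or DESeq2 adjusted p 0.326), and 473 kept the direction. The other 55 changed sign, and the cause was not tested. AngII+LY against Ctrl had none of these. In AngII against Ctrl, Hba-a1 was 0.0489 with DESeq2 size factors, 0.0489 with DESeq2, 0.74 with the GC correction and 0.56 with the GC correction and the block. Hba-a2 was -0.0259 without the filter, -0.00297 with the compared groups alone and -0.104 with the replicate block, and Hbb-bt was -0.0304 with the block. In AngII+LY against AngII, Alas2 was -0.057 with the GC correction. In the difference of the antagonist's effects, the GC correction gave -0.0954 for Hba-a1, -0.112 for Hba-a2, 0.242 for Hbb-bs and -0.102 for Slc4a1, with the block added -0.248, -0.199, 0.0763 and -0.391, and the block alone -0.0126 for Slc4a1.

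Leaving out each mouse in turn, AngII against Ctrl ranged from -0.26 to 0.24 for Hba-a1, -0.26 to 0.23 for Hba-a2, -0.10 to 0.43 for Hbb-bt, -0.20 to 0.80 for Alas2 and -0.10 to 1.07 for Slc4a1. Alas2 in AngII+LY against AngII ranged from -0.19 to 0.73. LY against Ctrl, where 1 LY mouse left is assumed to vary like the other groups, ranged from -0.47 to 0.72 for Hba-a1, -0.61 to 0.74 for Hba-a2, -0.31 to 0.94 for Hbb-bs, -0.31 to 1.33 for Hbb-bt, -0.64 to 1.66 for Alas2 and -1.13 to 1.18 for Slc4a1. The difference of effects ranged from -0.0577 to 1.13, -0.12 to 1.23, -0.65 to 0.60, -0.80 to 0.84, -1.52 to 0.78 and -0.55 to 1.76 in the same order of genes.

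The count of genes called over the whole table, 0 in each comparison with edgeR, was 2648 in AngII against Ctrl, 2062 in AngII+LY against AngII, 343 in AngII+LY against Ctrl, 21 in LY against Ctrl and 210 in the difference of effects with DESeq2. Without the filter it was 123, 1 and 13 in the comparisons named at the start of that list, with the newer quasi-dispersions 555 and 176 in AngII against Ctrl and AngII+LY against AngII, and with the block and GC correction 1 in AngII+LY against Ctrl. Leaving out a mouse gave 0 to 1725 (without AngII 1, with 805 without Ctrl 4 and 382 without AngII 2), 0 to 844 (without the same mouse) and 0 to 3. Of the 10 genes most like the globins, 6 to 10 stayed among the 10 when a mouse was left out. Same-numbered mice did not deviate together (18 pairs, r from -0.128 to 0.0897, 0 above 0.1), so the replicate block pairs mice that share a number only, and with it 0 genes were called and the lowest adjusted p of the 6 was 0.586. The GC correction moved the median log2 fold change of all genes from -0.06 to 0.10 in AngII against Ctrl and from -0.02 to 0.17 in AngII+LY against Ctrl.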
